A study of Mus musculus with 6 samples.

Results

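The genes described are the matrix proteases, their inhibitors and the lysyl oxidases of mouse liver. They were chosen by name, as every protein-coding gene of the deposited table whose symbol begins with *Mmp*, *Timp* or *Adamts*, or is *Lox* or *Loxl* followed by a digit. This gave 55 of 54532 listed genes: 22 matrix metalloproteinases (MMPs), 4 tissue inhibitors of metalloproteinases (TIMPs), 19 ADAMTS proteases, 5 ADAMTS-like proteins and 5 lysyl oxidases. Of these, 35 had enough reads to be tested and 20 did not.

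The study addressed the role of SPNS1, a lysosomal transporter of lysophospholipids, in lipid metabolism. RNA-Seq of whole liver was compared between 3 control mice and 3 g*Spns1*-cKO mice, 1 library per mouse. The g*Spns1*-cKO mice carried *Spns1* fl/fl alleles and Rosa26Cre-ERT2, a tamoxifen-activated Cre expressed from a locus active in most tissues, so deletion was not limited to hepatocytes. They received tamoxifen at 50 mg/kg on postnatal days 11, 13 and 15, which removes exon 3. The sample labels call the controls WT, whereas the methods describe *Spns1* fl/fl mice without Cre. The age at harvest, the sex of the mice and whether the sequenced controls received tamoxifen are not given in the sources used here.

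Matrix metalloproteinases are zinc enzymes, mostly secreted as inactive proenzymes, that cut collagens, elastin, proteoglycans and many non-matrix proteins. TIMPs bind and block the active enzymes, and ADAMTS proteases cut proteoglycans, procollagens or von Willebrand factor. Lysyl oxidases act in the opposite direction on the matrix, by initiating the cross-links between collagen or elastin molecules. In liver, stellate cells, fibroblasts, macrophages, endothelium and bile duct cells are known sources of many of these transcripts.

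Library totals lay between 30350002 and 35295611 counts. Scaling factors from the trimmed mean of M values (TMM) were 0.834 to 0.873 in control and 1.16 to 1.18 in g*Spns1*-cKO libraries, and values are given below as CPM (reads per 1e+06 scaled reads) after this scaling. The targeted gene, *Spns1*, was at 35.9, 50.7 and 34.6 CPM in control and 17.8, 30.6 and 17.8 CPM in g*Spns1*-cKO livers, and no g*Spns1*-cKO library reached the lowest control (log2 fold change -0.87, SE 0.25, edgeR adjusted p = 0.03). Hepatocyte markers summed to between 98000 and 111000 CPM in control and between 58800 and 67400 CPM in g*Spns1*-cKO livers. *Alb* alone made up 66.7% of this sum over all libraries. In bulk tissue, a change in the number of cells of a type and a change in RNA per cell cannot be told apart.

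Higher expression was the common direction. In g*Spns1*-cKO livers 28 of the 35 tested genes were higher, against 21.3% of the 15449 genes tested in the whole table (edgeR quasi-likelihood test, Benjamini-Hochberg adjusted p under 0.05). None was lower, against 20.5% of all genes; edgeR at an unadjusted p under 0.05, DESeq2 and limma-voom also gave 0 lower. In 29 of the 35, the 28 called genes and *Mmp9*, every g*Spns1*-cKO library lay above every control library, which held for 27.1% of all genes. The median log2 fold change was 1.38 over the tested members and 0.01 over all genes. Of the 35, 9 passed the filter on low counts only with the help of the g*Spns1*-cKO libraries. That step favours genes higher in those livers. The 9 were *Mmp7*, *Mmp9*, *Mmp12*, *Mmp13*, *Mmp27*, *Timp1*, *Adamts12*, *Adamtsl3* and *Loxl4*, and 7 of them, all but *Mmp9* and *Timp1*, were called higher. Their fold changes and adjusted p values carry that selection. Among the 26 that passed on the control libraries alone, 21 were higher and none was lower. The share of all genes that passed on the control libraries alone and were called was not computed. Without TMM scaling the median over all genes shifted to 0.46 and 88.3% of all calls were higher, against 50.9% with it; relative to the median of all genes, the members stood at 1.36 under both scalings.

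**Figure D1:**
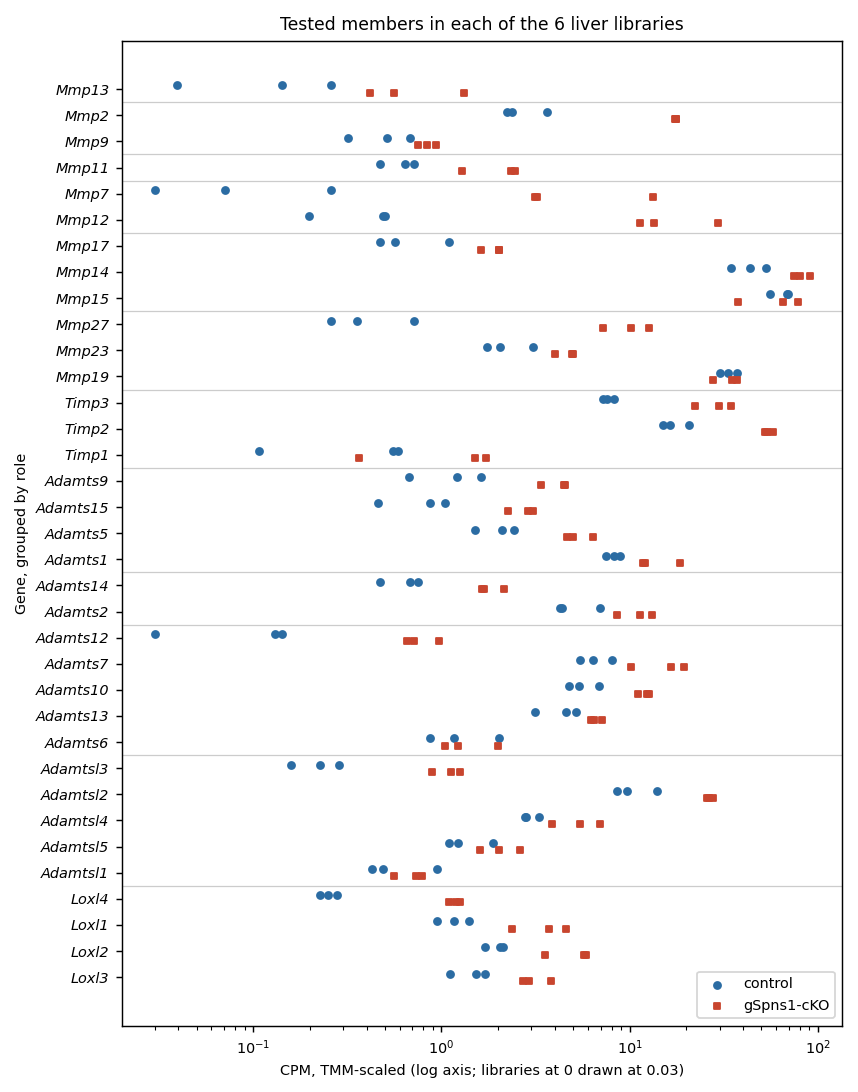
Each point is 1 liver library, with scaled CPM on a log axis and the 35 tested genes in rows grouped by role; circles are control and squares g*Spns1*-cKO livers. The groups are separate in 29 rows, and overlap for *Mmp15*, *Mmp19*, *Timp1*, *Adamts6*, *Adamtsl1* and *Adamtsl5*.

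Of the members with the largest changes, *Mmp7*, *Mmp12*, *Mmp27* and *Mmp13* lie in 1 cluster of MMP genes on chromosome 9, between 7272514 and 7699585 (mm10), which spans 427.1 kb and holds 9 members. To show the sequence in front of these genes, the 250 bases upstream of a RefSeq transcript start are given 5′ to 3′ (RefSeq, GRCm38.p6), with capitals marking the letters TGANTCA, a sequence that AP-1 (Fos and Jun) factors bind. For *Mmp12* the window belongs to the second of its listed starts, inside the gene. *Mmp27* is shown as a cluster gene that was called higher and holds no match.
*Mmp13*, chr9:7272264-7272513, + strand: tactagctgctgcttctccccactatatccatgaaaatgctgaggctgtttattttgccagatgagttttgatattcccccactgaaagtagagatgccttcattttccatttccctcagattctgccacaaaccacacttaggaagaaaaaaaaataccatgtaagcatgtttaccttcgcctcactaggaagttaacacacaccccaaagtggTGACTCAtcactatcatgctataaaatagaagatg
*Mmp12*, chr9:7347124-7347373, + strand: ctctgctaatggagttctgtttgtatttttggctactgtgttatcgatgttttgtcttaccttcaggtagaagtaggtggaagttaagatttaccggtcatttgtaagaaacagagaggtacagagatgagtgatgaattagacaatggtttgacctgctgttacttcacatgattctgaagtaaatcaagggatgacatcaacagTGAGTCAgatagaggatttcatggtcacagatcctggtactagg
*Mmp7*, chr9:7691840-7692089, + strand: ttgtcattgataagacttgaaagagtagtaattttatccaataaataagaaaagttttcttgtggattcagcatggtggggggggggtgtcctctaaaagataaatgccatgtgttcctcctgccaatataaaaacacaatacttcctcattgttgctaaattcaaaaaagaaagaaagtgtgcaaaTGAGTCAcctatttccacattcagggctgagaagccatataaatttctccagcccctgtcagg
*Mmp27*, chr9:7571146-7571395, + strand: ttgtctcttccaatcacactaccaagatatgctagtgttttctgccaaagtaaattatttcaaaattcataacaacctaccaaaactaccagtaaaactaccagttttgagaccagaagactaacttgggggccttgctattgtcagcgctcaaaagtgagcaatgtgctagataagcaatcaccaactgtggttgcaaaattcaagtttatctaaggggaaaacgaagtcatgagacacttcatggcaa
The letters TGANTCA, searched on both strands, on which the pattern reads alike, were present in 7.81% of 32851 promoter windows of 300 bases (250 before and 50 after the start). Of the 55 members 36 had a window, 39 windows in all. The letters were in 7 of the 11 windows of the cluster, against 0 of 28 windows of members elsewhere. They belonged to 7 of the 9 cluster members, of which *Mmp12* and *Mmp7* each also had a window without the letters. Among the 7 were *Mmp1b*, *Mmp10* and *Mmp20*, which had 0 reads in all 6 libraries, and *Mmp3*, which had 4 reads in control and 6 in g*Spns1*-cKO livers. The 2 cluster members without the letters were *Mmp27* and *Mmp8*; the latter was below the filter, with 1 read in control and 30 in g*Spns1*-cKO livers. Presence of these letters did not separate the cluster genes that were higher from those that were not detected, and a match describes the sequence, not a bound site.

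**Figure D2:**
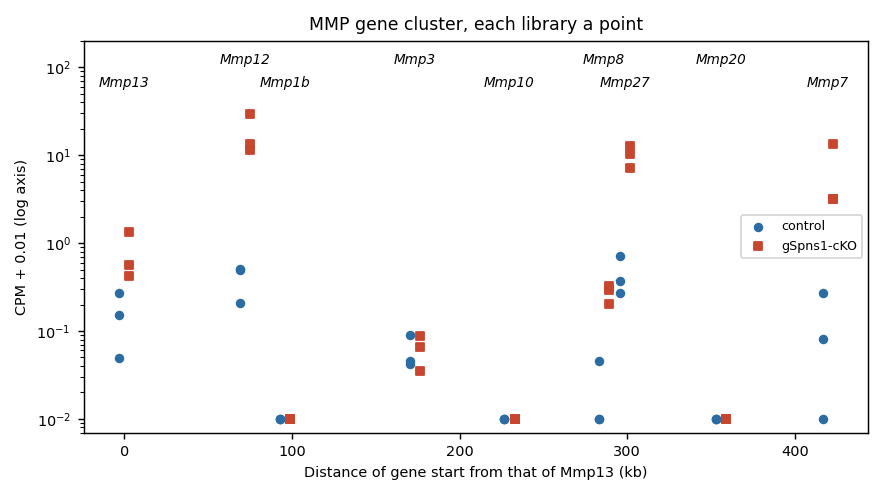
CPM plus 0.01 on a log axis against the distance of each gene's start from that of *Mmp13*, in kb, for the 9 cluster genes; circles are control and squares g*Spns1*-cKO libraries. *Mmp13*, *Mmp12*, *Mmp27*, *Mmp7* and the sparsely covered *Mmp8* separate the groups, *Mmp3* does not, and *Mmp1b*, *Mmp10* and *Mmp20* were at 0.

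*Mmp12* encodes macrophage metalloelastase, an elastin-degrading enzyme. It was at 0.498, 0.487 and 0.198 CPM in control and 13.4, 11.4 and 29.3 CPM in g*Spns1*-cKO livers. All 3 g*Spns1*-cKO libraries were far above the controls, with the third the highest (log2 fold change 5.48, SE 0.55, 44.6-fold, edgeR adjusted p = 0.000531). *Mmp7*, matrilysin, a small MMP typical of epithelia such as bile ducts, had 2, 8 and 0 reads in control and 115, 509 and 124 reads in g*Spns1*-cKO livers. The groups did not overlap, but the second g*Spns1*-cKO library was 4.21 times the lowest of its group (log2 fold change 5.75, SE 1.09, edgeR adjusted p = 0.00952). The log2 value was 4.72 without that library and 7.31 without control 2, and limma-voom gave an adjusted p of 0.0742.

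*Mmp27*, a less studied MMP, had 10, 8 and 18 reads in control and 455, 277 and 402 reads in g*Spns1*-cKO livers, again with no overlap (log2 fold change 4.52, SE 0.35, 23.0-fold, edgeR adjusted p = 1.93e-05). The collagenases cut fibrillar collagens. *Mmp13* was the 1 tested collagenase, with 4, 8 and 1 reads in control and 20, 16 and 52 reads in g*Spns1*-cKO livers (log2 fold change 2.31, SE 0.67, edgeR adjusted p = 0.0187). Its call was lost without control 1 (adjusted p = 0.0573), without control 3 (0.0657) and without g*Spns1*-cKO 3 (0.111), where the log2 value was 1.66; without control 2 it was 2.99. *Mmp8*, the neutrophil collagenase, was below the filter with 1, 0 and 0 reads against 7, 12 and 11, a ratio of 22.2 (95% interval from counting error only, 3.70 to 907). With a filter of 1 read in any library, *Mmp8* passed (edgeR adjusted p = 0.00707).

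Of the 2 gelatinases, both tested, 1 was called higher. *Mmp2*, gelatinase A, made mainly by stellate cells and fibroblasts, was at 2.24, 3.64 and 2.37 CPM in control and 17.4, 17.7 and 17.7 CPM in g*Spns1*-cKO livers. The g*Spns1*-cKO libraries were almost equal, with the highest 1.02 times the lowest, and all lay above the controls (log2 fold change 2.67, SE 0.19, 6.36-fold, edgeR adjusted p = 8.75e-06). *Mmp9*, gelatinase B, made by leukocytes, had 9, 21 and 13 reads in control and 27, 36 and 33 reads in g*Spns1*-cKO livers (log2 fold change 0.73, SE 0.40, edgeR adjusted p = 0.169). Its groups did not overlap, yet it did not pass the test. The difference between the changes of the gelatinases was not tested.

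Among membrane-type MMPs, which act at the cell surface, *Mmp14* is the known activator of pro-MMP2. It was at 34.4, 53.2 and 43.6 CPM in control and 74.7, 90.3 and 80.6 CPM in g*Spns1*-cKO livers, without overlap (log2 fold change 0.90, SE 0.15, 1.87-fold, edgeR adjusted p = 0.00131). *Mmp17* was also higher (log2 fold change 1.38). *Mmp15* was at 55.6, 68.9 and 68.5 CPM against 78.1, 37.5 and 64.8 CPM, so that the g*Spns1*-cKO libraries lay on both sides of the controls (log2 fold change -0.10, SE 0.26, edgeR adjusted p = 0.79). *Mmp24* and *Mmp25* had no read in control livers against 15 reads each under deletion, which is at least 3.70-fold higher when the control group is set to 3 counts, and *Mmp16* had 1 read in all. Exons of *Mmp24* overlap those of *BC029722* on the other strand, and whether counting used strand is not given in the sources used here.

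Of the remaining MMPs, *Mmp11*, stromelysin-3, was at 0.640, 0.714 and 0.474 CPM in control and 1.28, 2.45 and 2.34 CPM in g*Spns1*-cKO livers (log2 fold change 1.72, SE 0.36, edgeR adjusted p = 0.00383). It shares 155 exon bases with *Chchd10* on the opposite strand, a gene with 58144 reads, so its value is uncertain. *Mmp23*, an MMP anchored in the membrane, was higher too (log2 fold change 1.01). *Mmp19*, one of the most abundant members, was at 33.3, 30.1 and 37.0 CPM in control and 37.0, 27.7 and 35.0 CPM in g*Spns1*-cKO livers, with overlapping groups (log2 fold change -0.01, SE 0.13, edgeR adjusted p = 0.964). Without TMM scaling *Mmp19* was 0.44 and passed the threshold, close to the shift of all genes under that scaling. *Mmp28* had 20 reads in control and 40 in g*Spns1*-cKO livers and was not tested, and *Mmp21* was at 0.

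Of the 3 tested TIMPs, 2 were higher and 1 did not pass the test. *Timp3*, an inhibitor held in the matrix that also blocks ADAM and ADAMTS enzymes, was at 7.18, 8.25 and 7.55 CPM in control and 22.3, 34.4 and 29.7 CPM in g*Spns1*-cKO livers (log2 fold change 1.91, SE 0.16, 3.76-fold, edgeR adjusted p = 2.67e-05). *Timp2*, which blocks MMP2 and also takes part in its activation by MMP14, was at 16.4, 20.7 and 15.1 CPM in control and 52.4, 58.0 and 53.6 CPM in g*Spns1*-cKO livers (log2 fold change 1.65, SE 0.13, 3.14-fold, edgeR adjusted p = 1.58e-05). Neither overlapped between the groups. *Timp3* shares 1733 exon bases with *Syn3* on the opposite strand, a gene with 174 reads. *Timp1*, an inducible TIMP often measured in liver fibrosis, had 3, 18 and 14 reads in control and 62, 14 and 59 reads in g*Spns1*-cKO livers. The second g*Spns1*-cKO library lay within the control range, and the test was not passed (log2 fold change 1.52, SE 0.68, edgeR adjusted p = 0.102). Without that library the adjusted p was 0.0187, and with a filter of 1 read in any library it was 0.00656. *Timp4* had 0 reads in control and 2, 5 and 0 reads in g*Spns1*-cKO livers and was not tested.

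Levels of different genes were compared per kb of gene length. In control livers *Mmp15* (11.9 ± 1.40 CPM per kb, SD, n = 3), *Mmp19* (9.47 ± 0.98) and *Mmp14* (7.34 ± 1.58) led, and *Timp2* (4.46 ± 0.75) was the main inhibitor. In g*Spns1*-cKO livers *Timp2* (14 ± 0.75) and *Mmp14* (13.7 ± 1.32) were the highest, differing by less than their spread, followed by *Mmp15* (11.1 ± 3.84), *Mmp19* (9.41 ± 1.39), *Mmp7* (6.12 ± 5.46), *Mmp2* (5.22 ± 0.05) and *Mmp27* (4.54 ± 1.23). The SD of *Mmp7* covers nearly its whole mean, so its place in this order is not fixed. *Mmp14*, *Mmp15* and *Mmp19* together made up 89.4% to 92.5% of the summed MMP level in control and 53.4% to 66.0% in g*Spns1*-cKO livers.

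Summed over each class, MMP transcripts were at 31.5 ± 3.26 CPM per kb in control and 56.5 ± 0.42 in g*Spns1*-cKO livers, a ratio of 1.79. The TIMP sum was 5.87 ± 0.97 and 18.9 ± 0.71, a ratio of 3.22. The summed MMP level over the summed TIMP level was 5.33, 4.84 and 6.07 in control and 3.13, 2.87 and 2.96 in g*Spns1*-cKO libraries, without overlap. The direction depended on the 3 most abundant MMPs: without *Mmp14*, *Mmp15* and *Mmp19*, a choice made after the values were seen, the ratio was 0.436, 0.512 and 0.453 in control and 1.07, 1.34 and 1.1 in g*Spns1*-cKO libraries, higher rather than lower. These are ratios of transcripts and give no measure of enzyme activity. The ratio of group means was 2.02 for ADAMTS proteases, 2.16 for ADAMTS-like proteins and 2.84 for lysyl oxidases. No test was made on these sums.

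**Figure D3:**
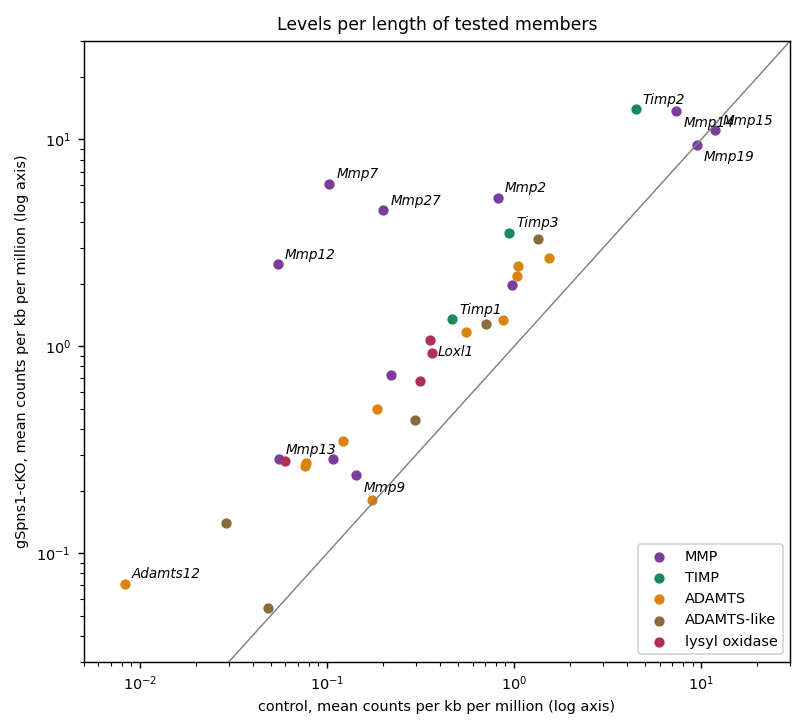
Mean level per kb of gene length (CPM per kb, log axes) in control against g*Spns1*-cKO livers for the 35 tested genes, coloured by class, with the line of equal level. *Mmp15* and *Mmp19* lie at the line, at 11.9 and 9.47 in control livers, while *Mmp7*, *Mmp12*, *Mmp27* and *Adamts12* lie farthest above it, followed by *Mmp2*.

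All 4 tested ADAMTS proteoglycanases, enzymes that cut versican and related proteoglycans, were higher. *Adamts9* was at 1.21, 1.62 and 0.672 CPM in control and 3.39, 4.51 and 4.48 CPM in g*Spns1*-cKO livers (log2 fold change 1.80, SE 0.31, edgeR adjusted p = 0.0013). *Adamts15* was at 0.462, 1.04 and 0.869 CPM against 2.25, 2.87 and 3.05 CPM (log2 fold change 1.78, SE 0.33, edgeR adjusted p = 0.00197). *Adamts5* and *Adamts1* had log2 fold changes of 1.40 and 0.78, and in none of the 4 did the groups overlap. *Adamts4* was below the filter and was not tested. *Adamts8* and *Adamts20* had at most 9 reads over the 6 libraries.

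Both tested procollagen N-proteinases, which trim the amino-terminal propeptide of fibrillar procollagens, were higher, with log2 fold changes of 1.51 for *Adamts14* and 1.08 for *Adamts2*. *Adamts3*, the remaining one, had 17 reads in each group, 16 of them in control 2. Of the other ADAMTS genes, *Adamts12* had 4, 4 and 0 reads in control and 35, 25 and 28 reads in g*Spns1*-cKO livers (log2 fold change 3.00, SE 0.65, edgeR adjusted p = 0.00446). *Adamts7* and *Adamts10* were higher with log2 fold changes of 1.22 and 1.09. *Adamts7* shares 122 exon bases with *Tbc1d2b* on the opposite strand, a gene with 7869 reads against 2311 for *Adamts7*, so its value is uncertain. *Adamts13*, the von Willebrand factor protease made by hepatic stellate cells, was at 4.59, 5.16 and 3.12 CPM in control and 6.25, 7.09 and 6.49 CPM in g*Spns1*-cKO livers (log2 fold change 0.62, SE 0.21, edgeR adjusted p = 0.0348). Its groups did not overlap, but the call was lost in 4 of the 6 fits that left out 1 mouse, without control 1 or 3 and without g*Spns1*-cKO 2 or 3 (adjusted p from 0.0622 to 0.106). *Adamts6* was at 2.03, 1.17 and 0.869 CPM against 2.00, 1.04 and 1.22 CPM (log2 fold change 0.06), and *Adamts16*, *Adamts17*, *Adamts18* and *Adamts19* had at most 15 reads.

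The ADAMTS-like proteins lack the protease domain and bind microfibrils. *Adamtsl3* had 8, 7 and 4 reads in control and 32, 43 and 49 reads in g*Spns1*-cKO livers (log2 fold change 2.25, SE 0.42, edgeR adjusted p = 0.00196). *Adamtsl2*, the most abundant of them per kb, and *Adamtsl4* were higher as well, with log2 fold changes of 1.30 and 0.87. The call of *Adamtsl4* was lost without control 2 or 3 or without g*Spns1*-cKO 3 (adjusted p = 0.0539, 0.0547 and 0.0897). *Adamtsl5* and *Adamtsl1* overlapped between groups and had log2 fold changes of 0.56 and 0.17.

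All 4 tested lysyl oxidase genes were higher. *Loxl4* had 7 reads in each control and 45, 42 and 47 reads in g*Spns1*-cKO livers (log2 fold change 2.22, SE 0.38, edgeR adjusted p = 0.00123). *Loxl1*, needed for elastic fibres, was at 1.17, 1.40 and 0.948 CPM in control and 4.61, 2.37 and 3.71 CPM in g*Spns1*-cKO livers (log2 fold change 1.59, SE 0.31, edgeR adjusted p = 0.00236). *Loxl2*, which cross-links collagen IV, was at 1.71, 2.05 and 2.13 CPM against 5.84, 3.54 and 5.72 CPM (log2 fold change 1.36, SE 0.25, edgeR adjusted p = 0.00191). In both, the second g*Spns1*-cKO library was the lowest of its group and still above every control. *Loxl3* was at 1.71, 1.53 and 1.11 CPM against 2.72, 3.81 and 2.90 CPM (log2 fold change 1.11, SE 0.27, edgeR adjusted p = 0.00756). It shares 535 exon bases with *Htra2* on the opposite strand, a gene with 1878 reads against 481 for *Loxl3*, so its value is uncertain. *Lox*, the founding member, was below the filter with 2, 4 and 0 reads in control and 51, 10 and 29 reads in g*Spns1*-cKO livers, a ratio of 11.1 (95% interval from counting error only, 4.91 to 31.1). With a filter of 1 read in any library, *Lox* had a log2 fold change of 3.44 (edgeR adjusted p = 1.04e-05).

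**Figure D4:**
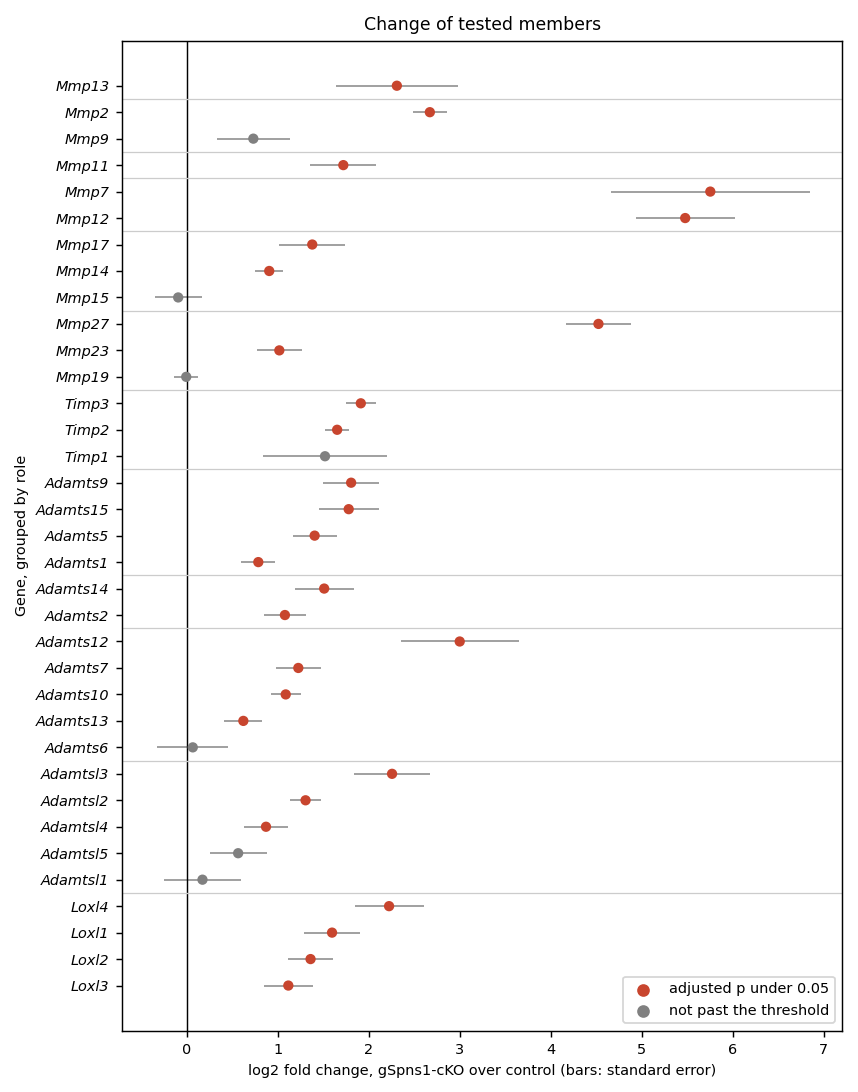
Log2 fold change of g*Spns1*-cKO over control with its standard error for the 35 tested genes, in rows grouped by role. The 28 coloured points passed the threshold on the adjusted p, and the 7 grey points, *Mmp9*, *Mmp15*, *Mmp19*, *Timp1*, *Adamts6*, *Adamtsl5* and *Adamtsl1*, did not.

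Spread between the g*Spns1*-cKO mice was described for the called members. The test favours genes with little spread within a group, so agreement among these genes is partly a result of calling them. Of the members not called or not tested, *Timp1* was at 1.72, 0.365 and 1.5 CPM in g*Spns1*-cKO livers and *Lox* at 1.42, 0.261 and 0.738 CPM. *Mmp9* was closer together, at 0.751, 0.938 and 0.839 CPM. Among the 28 called members, the highest g*Spns1*-cKO library was over 2 times the lowest in 3, *Mmp7* (4.21), *Mmp13* (3.17) and *Mmp12* (2.56). The peaks of these genes lay in different mice, the second for *Mmp7* and the third for *Mmp12* and *Mmp13*. Over the 28, g*Spns1*-cKO 1, 2 and 3 was the highest of its group for 8, 13 and 7 genes.

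Genes that act with the members were described from 4 lists. Beside their counts stand the shares over all 15449 genes tested, 21.3% higher and 20.5% lower. Of 24 tested genes for activation and inhibition of matrix proteases, 10 were higher and 10 lower. Higher were *Plaur*, the urokinase receptor (log2 fold change 2.23), *Ctss*, a lysosomal cysteine protease (2.15), and *Plat*, tissue plasminogen activator (2.12). Lower were *Serpine2*, an inhibitor of thrombin and plasminogen activators (-3.25), *Klkb1*, plasma prekallikrein (-1.35), and *Lrp1*, the clearance receptor for protease-inhibitor complexes (-0.74). *Serpine2* had 909, 1598 and 1226 reads in control and 176, 180 and 173 reads in g*Spns1*-cKO livers, with no overlap (edgeR adjusted p = 3.08e-06).

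Of 12 tested ADAM genes, the membrane-anchored relatives of ADAMTS, 7 were higher and none lower, led by *Adam8* (log2 fold change 3.08), a protease of leukocytes, *Adam11* (1.98), a member without protease activity, and *Adam19* (1.55). Of 20 tested substrates 15 were higher and none lower, led by *Vcan* (3.05), the proteoglycan versican, *Thbs1* (2.67), thrombospondin-1, and *Nid1* (2.18), a basement membrane linker. *Fn1*, fibronectin, did not pass (-0.38). For collagen and elastin maturation, 17 of 24 tested genes were higher and 3 lower. The elastic fibre genes *Mfap2* (3.00), *Eln* (2.97) and *Fbn1* (1.65) led the former, and *Plod3* (-0.54), *Plod1* (-0.51), both collagen lysyl hydroxylases, and *Bmp1* (-0.45), which activates lysyl oxidase, were the 3 lower. Medians of the 4 lists were 0.30, 1.12, 1.37 and 1.05, against 0.01 for all genes.

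Markers of cell types that express these genes also differed between the groups. Over all genes tested, 21.3% were higher and 20.5% lower. The list of macrophages other than Kupffer cells summed to 24.9 to 27.5 CPM in control and 152 to 184 CPM in g*Spns1*-cKO livers, with 7 of 8 markers higher. *Gpnmb* made up 35.8% of this sum over all libraries. It was at 0.32, 1.17 and 0.277 CPM in control and 64.2, 69.9 and 77.1 CPM in g*Spns1*-cKO livers, so it carried much of the difference. Cholangiocyte markers, of which 7 of 7 tested were higher, summed to 44.4 to 63.3 and 174 to 284 CPM, and the second g*Spns1*-cKO library was the highest, as for *Mmp7*. *Spp1* made up 84.5% to 88.8% of this sum; without it the sums were 6.8, 5.75 and 7.11 CPM in control and 25.7, 36.3 and 26.9 CPM in g*Spns1*-cKO livers. Single markers did not all share that order, as *Krt19* and *Cldn4* were highest in the third g*Spns1*-cKO library. Kupffer cell markers (5 of 6 higher) summed to 134 to 231 and 449 to 695 CPM. Stellate cell markers, with 8 of 9 higher, summed to 234 to 281 and 403 to 415 CPM. Myofibroblast and fibroblast markers (5 of 9) summed to 36.4 to 63.1 and 73.7 to 132 CPM, with the second g*Spns1*-cKO library the lowest of its group. *Col3a1* made up 39.2% of this sum over all libraries, and *Thy1*, *Postn* and *Fbln2* were not lowest in that library. Members differed too, as *Lox*, *Loxl1*, *Loxl2* and *Timp1* were lowest there and *Loxl3*, *Timp2* and *Timp3* highest. Sums for endothelium (6 of 8 higher) were 183 to 191 and 259 to 310 CPM, for neutrophils (3 of 4 tested) 2.24 to 4.71 and 5.87 to 11 CPM, and for lymphocytes (1 of 8 higher, 1 lower) 4.47 to 5.48 and 6.44 to 6.91 CPM. *S100a9* made up 46.4% of the neutrophil sum over all libraries. The neutrophil markers *Ly6g*, *Camp*, *Ngp* and *Mpo* had too few reads to be tested. Each overlapped between the groups and had a lower mean in g*Spns1*-cKO livers. Of the hepatocyte markers 4 of 6 were lower, and *Ttr* and *Cps1* did not pass. *Cps1* went the other way, at 3160, 2490 and 2850 CPM in control and 3490, 3950 and 3450 CPM in g*Spns1*-cKO livers. *Col1a1*, *Col1a2* and *Col3a1* stood among both the substrates and the fibroblast markers, as did *Postn*, *Fbln2* and *Mfap4* for the maturation list, *Spp1* for cholangiocytes and *Vwf* for endothelium. No marker was at 0 in every library, and the part of these cell types in the changes of the proteases, inhibitors and lysyl oxidases was not tested.

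**Figure D5:**
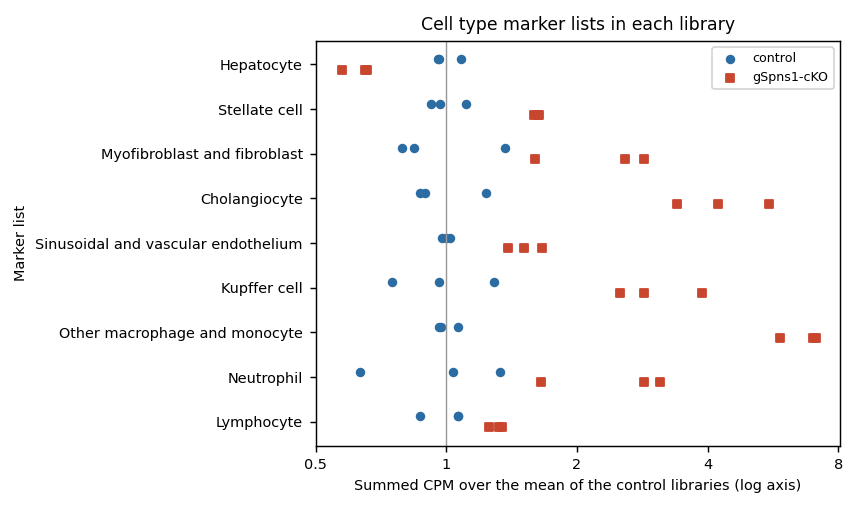
Summed CPM of each marker list over the mean of the 3 control libraries, on a log axis, 1 point per library; circles are control and squares g*Spns1*-cKO livers. The groups are separate for every list, with the hepatocyte list below 1 and the other 8 lists above 1 in the g*Spns1*-cKO libraries.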

How the data were processed

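The authors deposited a table of whole-number read counts per gene for 6 poly-A RNA-Seq libraries of mouse liver. The submitters' processing notes name fastp, HISAT2 2.0.5, featureCounts 1.5.0-p3 and mm10; whether counting used strand is not given in the sources used here. The table's 6 FPKM columns and the authors' own comparison (group signals, fold changes, p-values) were not used. Mice were grouped by the sample titles, and p-values measure the spread between 3 mice per group.

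Counts were filtered with filterByExpr by group, scaled by TMM and tested with edgeR 4.0.16 in R 4.3.3 (robust quasi-likelihood test), with Benjamini-Hochberg adjustment over 15449 genes and a threshold of 0.05. SE was the log2 fold change over the square root of F. Level per kb used the deposited gene length. An exact permutation test of 3 against 3 mice cannot go below p = 0.1, and none was run. Intervals and floors (3 counts over a group) cover counting error only.

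DESeq2 1.42.0, limma-voom (limma 3.58.1), other scalings and filters, and fits without each mouse served as alternatives. All fits were tested on simulated counts; DESeq2 made more false calls than edgeR there, and the limit on false calls was applied over several seeds after DESeq2 exceeded it on the first. No 2 libraries were duplicates. Exon overlaps came from GENCODE M21, and 1 result on them is not reported here.

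The members, roles, partner lists and markers were chosen with earlier results of these data known. Values were given in full for the 12 called members with the largest change and at least 10 counts on average in the higher group, for *Timp1* to *Timp4*, *Lox*, *Loxl1* to *Loxl4*, *Mmp2*, *Mmp9*, *Mmp14* and *Adamts13*; the 3 called partners with the largest change per direction and list were named with their log2 fold change, and other members were named to account for each. *Serpine2*, *Fn1*, *Mmp15*, *Mmp19*, *Adamts6* and *Mmp8* were given values after these were seen. Sequences of *Lox* and *Adamts19* were not used, and a search for the zinc-binding motif and protein identities was not run.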

Additional observations from a re-analysis of the deposited data

How the results depend on the processing

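The count of members called higher was 28 of 35. It was 21 of 26 with at least 10 counts in every library and 34 of 49 with at least 1 count in any library. With 1 mouse left out it lay between 25 of 36 (without g*Spns1*-cKO 3) and 30 of 37 (without g*Spns1*-cKO 1 or 2). Over all genes, 3286 of 15449 were higher in the main fit, and 2902 of 13322 and 3706 of 26590 under these filters. Without g*Spns1*-cKO 1, 2 or 3, 3213 of 15875, 2780 of 15766 and 2365 of 15781 were higher. With an adjusted p under 0.01, 24 of 35 members were higher. The count over all genes at that threshold was not computed. None of the members was lower under any of these settings. The median log2 fold change, 1.38, was 1.81 without TMM scaling, 1.5 with upper-quartile scaling, 1.5 with at least 1 count in any library, 1.21 with at least 10 counts in every library, and 1.25 to 1.56 with 1 mouse left out. The scalings moved the median of all genes with it, to 0.46 and 0.14, and with upper-quartile scaling 64.7% of all calls were higher; the filters changed which genes were tested. Among the members, changes of sign were limited to 4 uncalled genes. *Mmp15* was 0.34 without TMM scaling and 0.029 with upper-quartile scaling, and -0.33 to 0.15 with 1 mouse left out. *Mmp19* was 0.44, 0.12, 0.034 with at least 10 counts in every library, and -0.10 to 0.11 with 1 mouse left out. With 1 mouse left out, *Adamts6* ranged from -0.26 to 0.45 and *Adamtsl1* from -0.0497 to 0.58. Without TMM scaling *Timp1*, *Mmp9* and *Adamtsl5* also passed (adjusted p = 0.0344, 0.0309 and 0.0218, edgeR). In alternatives chosen after seeing the data, the log2 ratio of group means of the MMP sum over the TIMP sum turned from -0.86 to 1.32 without *Mmp14*, *Mmp15* and *Mmp19*, and that of the cholangiocyte sum was 2.14 with and 2.18 without *Spp1*.

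Deviations of libraries with the same number had correlations of 0.04, 0.03 and -0.03. With 3 libraries per group, such values cannot exclude that mice of the same number shared a litter or batch. The methods name littermates as controls, and the labels do not say which sequenced mice shared a litter. A fit with a replicate block gave 27 members higher, none lower and a median of 1.39, and *Mmp13* did not pass (edgeR adjusted p = 0.0507). Control 2 was the highest of its group for 16 of the 28 called members. With 3 mice per group a change in a gene of few reads may not be detectable at this depth.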
